A study of Homo sapiens with 8 samples.

Results

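The DDX and DHX genes encode the largest families of human RNA helicases, and their transcripts were followed here in total RNA and in RNA bound by Argonaute 2 (Ago2). Members were the array probes whose RefSeq transcript maps to a symbol of DDX or DHX followed by a number. They numbered 51 of the 16557 genes that could be named, with 74 of 41000 probes, and 49 probes for 39 genes passed the filters on detection and on dye difference (kept probes). The rule used names alone and no measured value.

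ST486, an established Burkitt lymphoma cell line, was transduced with the retroviral vector MXW-PGK-IRES-GFP, either empty (EV) or carrying miR-155. The paper describes sorting of GFP-positive cells for its check of miR-155 overexpression. It does not state whether the cells used for the arrays were sorted. Both groups were transduced with the vector backbone and GFP, and miR-155 was ectopic and driven by the vector. From each, total RNA (T) and RNA pulled down with an anti-Ago2 antibody (IP) were labelled with Cy3 and with Cy5 and hybridised as IP against T in both dye orientations, on 4 two-colour arrays with 8 channels. The labellings are technical repeats of 4 RNA samples, so n = 1 per condition. No test was possible, and the spread given below is that between dye orientations.

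RNA helicases use ATP to unwind RNA or to remodel RNA-protein complexes. DEAD-box (DDX) proteins mostly open short duplexes or clamp RNA, and DEAH-box and related (DHX) proteins move along it. Together they serve splicing, export, translation, ribosome assembly and RNA decay. Several act in the microRNA pathway itself: DDX5 and DDX17 accompany the Drosha complex that cuts primary microRNA transcripts, and DDX6 represses and helps to decay transcripts that Argonaute has bound. What was measured here is the mRNA of each helicase, not the protein.

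An mRNA that a microRNA binds is expected to be richer in Ago2-IP than in total RNA. The ratio IP/T is the normalized IP signal over the normalized total signal of 1 probe, averaged on the log2 scale over the labellings. The mature strand that pairs with targets is shown because ectopic miR-155 is what distinguishes the groups. The seed, bases 2 to 8, is in capitals (RefSeq).
hsa-miR-155-5p: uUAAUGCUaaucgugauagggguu

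Between 34.4% and 54.1% of probes were detected per channel, and 44 to 61 of the 74 helicase probes. Of the B-cell markers, MS4A1, CD79A, CD79B and CD22 were detected in all 4 channels of total RNA, as were MME and MYC. PAX5 was detected in none of them, CD3D, CD3E and CD2 in none, and BCL6 had no matched probe. Of the myeloid markers, CSF1R and ITGAM were detected in none and CD14 in 3. For the vector labels, MIR155HG, the host transcript of miR-155, was detected in both labellings of miR-155 total RNA and in neither of EV total RNA. The target DET1 had an IP/T 12.6-fold higher there. Of the target TBRG1, 1 kept probe had an IP/T 5.38-fold higher and the other one 1.03-fold higher.

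Helicase probes were detected more often than the array as a whole. Of the 74 probes, 58 (78.4%) were detected in at least 4 of 8 channels, against 47.5% of all probes. All probes include those that matched no gene name, and the share among the 23958 named ones was not computed. Of the 49 kept helicase probes, 41 were detected in all 8. The filters removed 16 probes on detection and 9 on a dye difference above 2-fold. The 12 genes left without a kept probe fell into 2 kinds. For 7 of them no probe was detected in any channel, among them DDX4, DDX43 and DDX53, known from germ cells and testis, as well as DDX25, DDX60 and DHX32. DDX31, DHX16, DHX34, DHX40 and DHX57 had signal in some channels only, or differed too far between dyes.

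As a group, helicase mRNAs were not rich in the Ago2-IP. The median IP/T of the 49 kept probes was 0.928 in EV and 0.790 in miR-155, against 0.900 and 0.882 over all 15529 kept probes. In EV, 3 probes of 2 genes reached an IP/T of at least 2, or 6.12% of members against 12.1% of all kept probes, and in miR-155 again 3 probes of 2 genes, against 12.2%. An IP/T of at most 0.5 was found for 4 probes in EV, or 8.16% against 10%, and for 4 in miR-155, against 9.83%. The 4 in EV include DDX24 A_24_P338882, whose EV IP signal was not well above background and gives only a bound, so 3 were measured. The share of all kept probes was not screened in that way, so only the 8.16% can be set beside it. The shares of members rest on 3 or 4 probes each, and those at most 0.5 lay near the shares of all kept probes. In each vector, 42 of 49 probes lay between 0.5 and 2. The genes at the high end were DDX3X, DHX33 and DDX39B, and those at the low end DDX49, DDX55, DDX56 and DHX38. After normexp background correction with an offset of 50, 0 helicase probes lay past these thresholds. With very high local backgrounds replaced, 2 were at least 2 and 1 at most 0.5 in each vector. The shares of all kept probes after normexp were not computed.

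**Figure D1:**
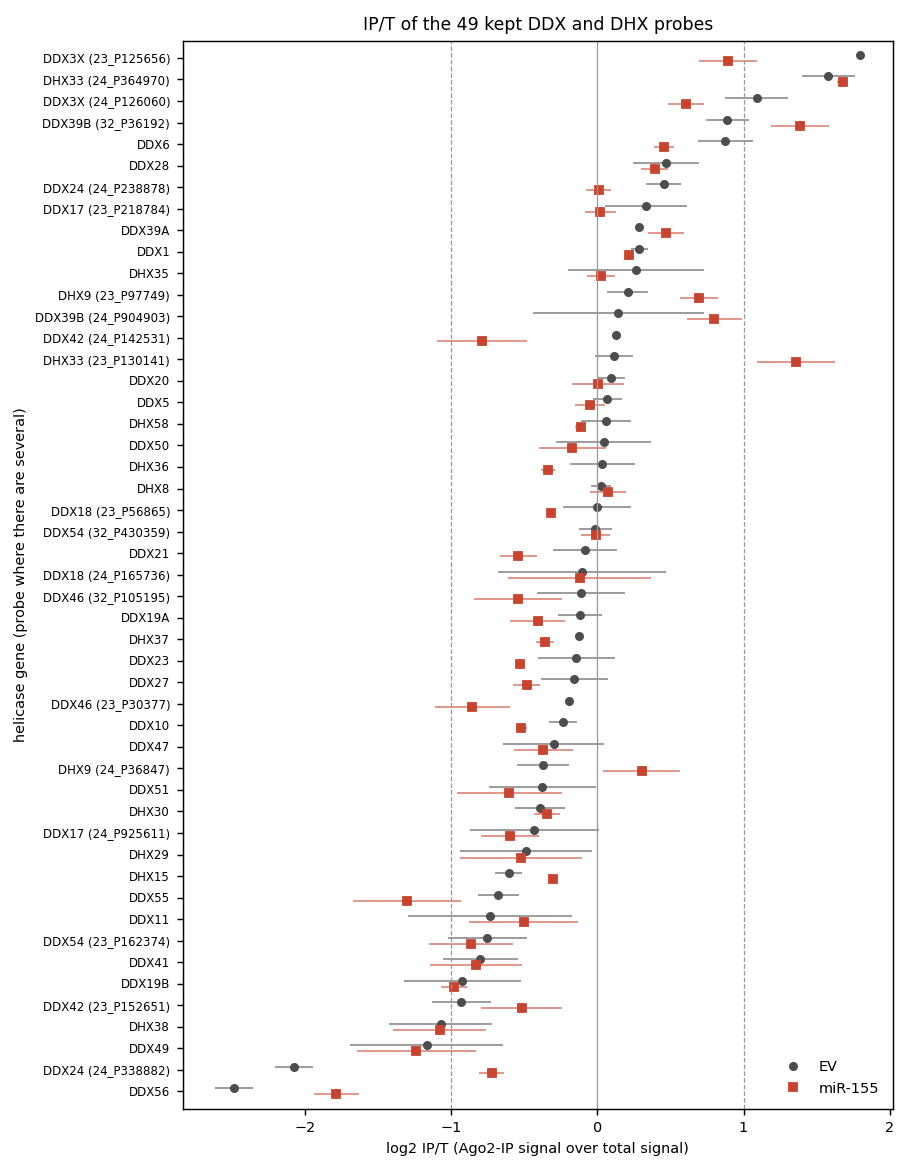
log2 IP/T of the 49 kept helicase probes (circles, EV, and squares, miR-155; means of the dye orientations). Bars span the values in the 2 orientations and dashed lines mark an IP/T of 0.5 and 2. Most probes lie between the dashed lines, with DDX3X, DHX33 and DDX39B to the right and DDX56, DDX49 and DHX38 to the left. The EV point of DDX24 (24_P338882) rests on an IP signal not well above background.

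The helicases of mRNA silencing, decay and stress granules held the highest median IP/T among roles with more than 1 gene, at 1.83 in EV over 5 probes of 4 genes and 1.37 in miR-155. This ranking rests on placing DDX3X, with 2 of the 5 probes, in this role, whereas its paralog DDX3Y was placed in translation. The roles were chosen with earlier results of these data known. The other probes were at 1.83 (DDX6), 1.07 (DDX20) and 1.02 (DHX36) in EV. Their middle value, that of DDX20, lay below the EV median of 1.1 of the primary microRNA processing role, so the ranking does not hold without DDX3X. DDX3X, which aids translation initiation on structured leaders and enters stress granules, led the role. Its probe A_23_P125656 gave signals of 1363 (Cy3) and 974 (Cy5) in EV total RNA and 3387 and 4722 in EV IP RNA. In miR-155 the signals were 2051 and 2722 in total RNA and 4414 and 4372 in IP RNA. IP signals exceeded total signals in both vectors without overlap, and total RNA was the sample that differed most between vectors. IP/T was 3.47 in EV, with 3.47 and 3.48 in the 2 orientations, and 1.86 in miR-155, with 2.13 and 1.62. Its second kept probe, A_24_P126060, gave 542 and 447 in EV total, 1102 and 995 in EV IP, 905 and 843 in miR-155 total, and 1394 and 1263 in miR-155 IP. IP/T on this probe was 2.13 in EV and 1.52 in miR-155, so both probes placed DDX3X in the IP in EV and less so in miR-155. The ratio of the IP/T values, miR-155 over EV, was 0.535 and 0.714 on these probes. After normexp, loess and Aquantile, the first of these ratios lay on the other side of 1. A pair of further DDX3X probes, left out for their dye difference, had an IP/T of 3.41 and 1.15 in EV and 1.5 and 0.946 in miR-155.

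DDX6, the decapping activator and translational repressor recruited by the CCR4-NOT complex to microRNA targets, had its own mRNA somewhat richer in the IP. Its kept probe gave 145 and 143 in EV total, 298 and 235 in EV IP, 124 and 161 in miR-155 total, and 210 and 177 in miR-155 IP. IP/T was 1.83 in EV and 1.37 in miR-155, with all IP signals above the total signals of the same vector. In EV it was 1.61 and 2.09 in the orientations. DDX20 (gemin3), found with Argonaute and the SMN complex, lay near 1. Its signals were 1080 and 1129 in EV total, 1129 and 1234 in EV IP, 1494 and 1721 in miR-155 total, and 1523 and 1699 in miR-155 IP. DHX36, which unwinds G-quadruplexes and binds AU-rich transcripts, gave 1494 and 1038 in EV total, 1238 and 1315 in EV IP, 1850 and 1881 in miR-155 total, and 1537 and 1414 in miR-155 IP. It had an IP/T of 1.02 in EV, where IP and total signals overlapped, and 0.790 in miR-155, where they did not. All 5 probes of this role, 2 of them of DDX3X, had a lower IP/T in miR-155 in both orientations. That compares with 32.7% of all kept probes and 46.9% of the helicase probes. For 4 of the 5, total signal, the denominator of IP/T, was higher in miR-155 in both orientations.

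The helicases of primary microRNA processing lay near 1 as well, with a median IP/T of 1.1 in EV and 1.09 in miR-155 over 6 probes of 4 genes. DDX5 (p68) gave 7906 and 5346 in EV total, 6001 and 7735 in EV IP, 10320 and 10282 in miR-155 total, and 10636 and 9273 in miR-155 IP. IP and total signals overlapped in each vector, and IP/T was 1.05 and 0.964. DDX1, which takes part in tRNA ligation and in microRNA maturation, had an IP/T of 1.22 in EV and 1.16 in miR-155. For DDX17 (p72) the kept probes pointed different ways. Probe A_23_P218784 gave 242 and 202 in EV total, 310 and 251 in EV IP, 161 and 199 in miR-155 total, and 188 and 176 in miR-155 IP, with an IP/T of 1.26 and 1.01. Probe A_24_P925611 gave 730 and 937 in EV total, 513 and 734 in EV IP, 1023 and 1236 in miR-155 total, and 712 and 776 in miR-155 IP, with an IP/T of 0.742 and 0.661.

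DHX9 (RNA helicase A), which links transcription to RNA processing and unwinds structured RNA, was the member of this role whose IP/T was higher in miR-155 on every kept probe. Probe A_23_P97749 gave 2768 and 3151 in EV total, 3305 and 3514 in EV IP, 4908 and 5811 in miR-155 total, and 8583 and 8696 in miR-155 IP. Probe A_24_P36847 gave 532 and 516 in EV total, 450 and 364 in EV IP, 935 and 691 in miR-155 total, and 1025 and 959 in miR-155 IP. The first had an IP/T of 1.15 in EV and 1.62 in miR-155 and the second 0.773 and 1.23. The miR-155 over EV ratios of IP/T were 1.40 and 1.60. A further DHX9 probe, left out for its dye difference, gave 0.459.

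Among the splicing helicases, DDX39B (UAP56), which also loads mRNA for export, stood apart on its brighter probe. A_32_P36192 gave 2078 and 1723 in EV total, 3531 and 3470 in EV IP, 2614 and 2399 in miR-155 total, and 7185 and 5968 in miR-155 IP. All IP signals exceeded all total signals, and IP/T was 1.85 in EV and 2.62 in miR-155. Its probe A_24_P904903 gave 303 and 186 in EV total, 308 and 223 in EV IP, 465 and 383 in miR-155 total, and 761 and 710 in miR-155 IP. There the EV signals overlapped, and IP/T was 1.1 and 1.74. At the other end lay DHX38 (PRP16), a helicase of the second splicing step, with 1209 and 953 in EV total, 579 and 450 in EV IP, 1504 and 1113 in miR-155 total, and 657 and 572 in miR-155 IP. Its IP/T was 0.476 in EV and 0.474 in miR-155, but in the orientation with IP RNA in Cy3 it was 0.608 and 0.590, short of 2-fold.

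The 2 kept probes of DDX42, a splicing helicase associated with the U2 snRNP, did not move together. A_23_P152651 gave 1008 and 905 in EV total, 546 and 459 in EV IP, 1440 and 1072 in miR-155 total, and 908 and 829 in miR-155 IP, an IP/T of 0.524 in EV and 0.698 in miR-155. The dimmer A_24_P142531, detected in 5 of 8 channels, gave 82.3 and 64.6 in EV total, 72.3 and 88.1 in EV IP, 121 and 92.3 in miR-155 total, and 66.0 and 56.4 in miR-155 IP. This probe had an IP/T of 1.09 in EV and 0.579 in miR-155. The other splicing helicases with a kept probe, DDX23, DDX39A, DDX41, DDX46, DHX8, DHX15 and DHX35, had an IP/T between 0.5 and 2 in both vectors.

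Ribosome biogenesis was the largest role, with 19 kept probes of 15 genes and IP/T values in EV from 0.179 to 2.99. DHX33, a nucleolar helicase of ribosomal RNA synthesis, gave 879 and 1150 in EV total, 3032 and 2980 in EV IP, 1197 and 1252 in miR-155 total, and 3906 and 3923 in miR-155 IP on probe A_24_P364970. IP signals were above total signals with no overlap, and IP/T was 2.99 in EV and 3.20 in miR-155, past 2 in each orientation. Its dimmer probe A_23_P130141, detected in 5 of 8 channels, gave 48.2 and 68.4 in EV total, 80.8 and 47.7 in EV IP, 63.7 and 55.9 in miR-155 total, and 119 and 196 in miR-155 IP. Its IP/T was 1.08 in EV and 2.57 in miR-155, so the probes differed 2.76-fold in EV and 1.25-fold in miR-155.

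DDX56, which takes part in assembling the large ribosomal subunit, had the lowest IP/T of all members. Its signals were 1158 and 1268 in EV total, 248 and 189 in EV IP, 1304 and 1117 in miR-155 total, and 360 and 341 in miR-155 IP. IP/T was 0.179 in EV and 0.290 in miR-155, at most 0.5 in each orientation. The ratio of these values, miR-155 over EV, was 1.62 (1.60 and 1.65 in the orientations), which lay below 1 after normexp, loess and Aquantile. DDX49 gave 1574 and 1299 in EV total, 832 and 486 in EV IP, 1770 and 1421 in miR-155 total, and 798 and 565 in miR-155 IP. Its IP signals were below its total signals in every channel, and IP/T was 0.445 and 0.423, though 0.641 and 0.561 with IP RNA in Cy3. DDX55, a further helicase of the large subunit, gave 437 and 457 in EV total, 259 and 302 in EV IP, 529 and 495 in miR-155 total, and 260 and 166 in miR-155 IP. It had an IP/T of 0.625 in EV and 0.406 in miR-155, the latter 0.314 and 0.525 in the orientations.

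DDX24 was measured by 2 kept probes that did not match each other. A_24_P238878 gave 772 and 473 in EV total, 704 and 971 in EV IP, 1142 and 1195 in miR-155 total, and 1133 and 1219 in miR-155 IP. On it, IP/T was 1.37 in EV and 1.01 in miR-155. A_24_P338882 gave 129 and 122 in EV total, 26.5 and 33.5 in EV IP, 160 and 113 in miR-155 total, and 72.6 and 91.2 in miR-155 IP. It was not well above background in either labelling of EV IP RNA, so only a bound can be given there: its EV total signal was at least 1.15-fold higher than its EV IP signal. The bound sets the mean EV total signal against the dimmest signal well above background or the probe's own EV IP signal, whichever was higher. These were 88.7, 52.3 and 77.3, so the probe's own signal was used. They are signals after normexp with an offset of 50 and high local backgrounds replaced, then loess and Aquantile. Their scale differs from that of the signals above.

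**Figure D2:**
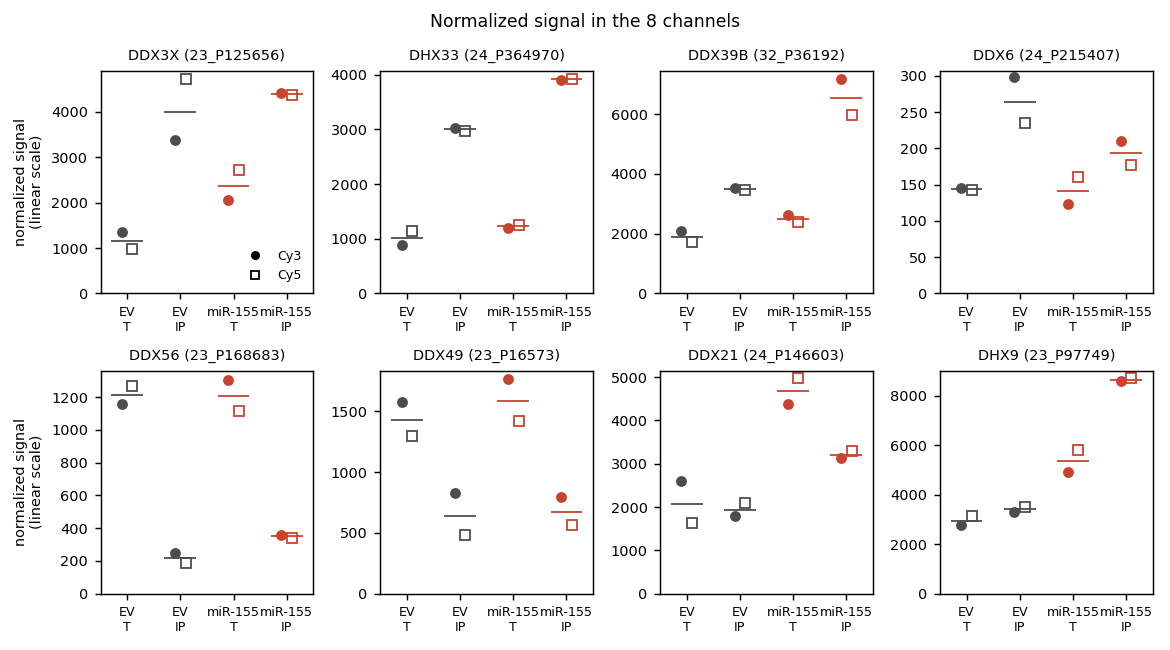
Normalized signal (linear scale) of 8 helicase probes in total (T) and IP RNA of EV and miR-155 cells. Points are the Cy3 (filled) and Cy5 (open) labellings of 1 RNA sample and lines their mean on the log2 scale. IP lies above T for DDX3X, DHX33, DDX39B and DDX6 and below it for DDX56 and DDX49, while for DDX21 and DHX9 total signal was higher in miR-155 than in EV.

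Of the 10 genes with 2 kept probes, 7 had probes within 2-fold of each other for IP/T in EV and all 10 in miR-155. The 3 exceptions in EV were DDX24, DDX42 and DHX33, where in each case 1 probe was detected in 5 of 8 channels. For DDX24 the fold between probes in EV was not measured, as 1 of them gives only a bound. Probes of 1 gene share its transcript pool and are not replicates of a condition.

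**Figure D3:**
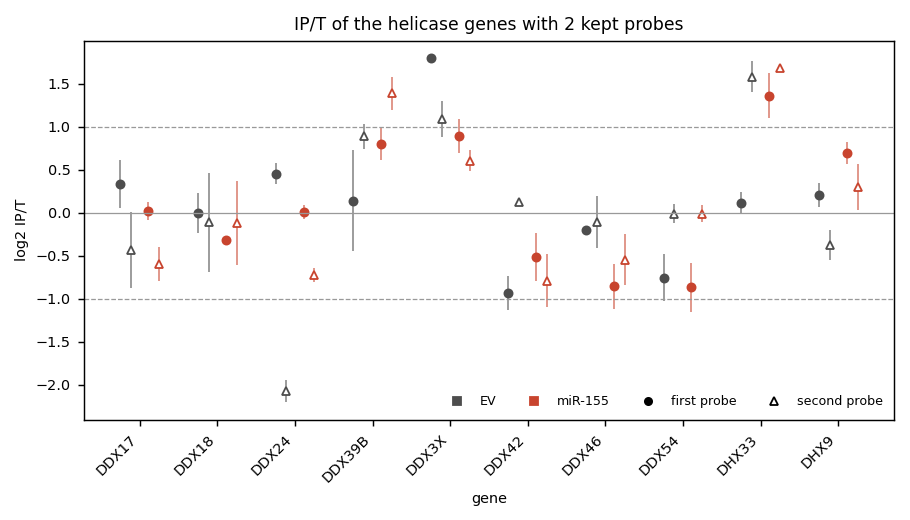
log2 IP/T of the 10 helicase genes with 2 kept probes, in EV (grey) and miR-155 (red). Circles and triangles are the 2 probes, bars span the dye orientations and dashed lines mark an IP/T of 0.5 and 2. DDX42 and DHX33 show more than 2-fold between probes in EV, and the low DDX24 point in EV rests on an IP signal not well above background.

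Between the vectors, IP/T differed by less than 2-fold for 47 of 49 probes. The median ratio of IP/T, miR-155 over EV, was 0.938 over the 49 probes and 0.983 over all kept probes. At 2-fold, 2 probes were higher in miR-155, or 4.08% against 1.15% of all kept probes, and 0 were lower, against 0.477%. These were DHX33 A_23_P130141, at 2.37 (3.12 and 1.81 in the orientations), and DDX24 A_24_P338882. The ratio of the latter was not measured because its EV IP signal was not well above background, so 1 of the 2 was measured. The share of all kept probes was not screened in that way. The other kept probes of these genes gave 1.07 (DHX33) and 0.735 (DDX24). By direction alone, IP/T was lower in miR-155 in both orientations for 23 probes (46.9%) against 32.7% of all kept probes, and higher in both for 11 (22.4%) against 26.7%. IP/T has the total signal as its denominator, and that signal differed between vectors, as follows.

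In total RNA, most helicase mRNAs were higher in miR-155 cells than in EV cells, in every role but chromosome cohesion. Total signal was higher in miR-155 in both dye orientations for 41 of 49 probes (83.7%), representing 34 genes, against 37.3% of all kept probes. It was lower in both for 2 probes, DDX17 A_23_P218784 and DDX41, or 4.08% against 34.5%. The median ratio, miR-155 over EV, was 1.32 for the members, with 1.35 and 1.34 in the orientations, against 1.01 for all kept probes. Without regard to orientation, the ratio was above 1 for 44 of the 49 probes, against 8090 of all 15529 kept probes. Counted per gene, 35 of 39 genes had a ratio above 1, and the share of all genes was not computed. Each vector is 1 RNA sample on 1 slide of its own, so vector, slide and culture cannot be told apart. In bulk RNA, a different make-up of cells and a different amount of RNA per cell cannot be told apart either.

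The size of the difference was moderate. At 2-fold, 3 probes were higher, for DDX21, DDX3X and DDX46, or 6.12% against 0.676% of all kept probes. This count was 0 after normexp, 1 after normexp with high backgrounds replaced and 0 where 2-fold was asked of each orientation. Without quantile normalization it was 17 of 45. There 73.3% of all kept probes were higher in miR-155 in both orientations. The share of all kept probes past 2-fold was not computed under any of these alternatives. At least 1.5-fold in each of the orientations was reached by 8 probes of 7 genes (16.3% against 1.65%), for DDX1, DDX21, DDX39B, DDX3X, DDX46, DHX9 and DHX29. Over 10 equal groups of mean signal, the median ratio of all kept probes lay between 1.00 and 1.02 in each, and that of the members, 2 to 8 probes a group, between 1.07 and 1.48. Without quantile normalization the median over all kept probes was itself 1.36, and that of the members 1.8.

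DDX21, a nucleolar helicase that couples ribosomal RNA transcription to processing, gave 2592 and 1642 in EV total and 4386 and 4977 in miR-155 total. The ratio was 2.26, but 1.69 in one orientation and 3.03 in the other. Its IP signals were 1799 and 2096 in EV and 3142 and 3287 in miR-155, so IP and total signals moved the same way. Across the ribosome biogenesis role, total signal was higher in both orientations for 16 of 19 probes and lower in both for 0, with a median ratio of 1.24. DDX10, DDX18, DDX27 and DHX37, all nucleolar, lay between 1.42 and 1.65. DDX56 was at 0.996.

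In splicing, 12 of 13 probes were higher in both orientations, with a median ratio of 1.32. DDX46 (PRP5), which helps to place the U2 snRNP at the branch point, gave 179 and 184 in EV total, 332 and 513 in miR-155 total, 139 and 204 in EV IP, and 286 and 281 in miR-155 IP on probe A_32_P105195. The ratio of total signal was 2.27 on that probe, detected in 6 of 8 channels, and 1.83 on its other kept probe, A_23_P30377. DDX39B was 1.78 and 1.32 on its probes. DDX41, a splicing helicase also named as a DNA sensor, was the exception with 0.872.

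In primary microRNA processing, 5 of 6 probes were higher in both orientations, with a median ratio of 1.54. DDX1 gave 8719 and 8661 in EV total, 13661 and 13278 in miR-155 total, 11001 and 10213 in EV IP, and 15436 and 15871 in miR-155 IP, a total ratio of 1.55 with hardly any spread between orientations (1.57 and 1.53). DHX9 was 1.81 and 1.54 on its probes and DDX5 1.58. DDX17 was 1.36 on one probe and 0.809 on the other. In silencing and decay, DDX3X was 2.05 and 1.77, DHX36 1.5 and DDX20 1.45. DDX6 was 0.977, with orientations on both sides of 1.

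Smaller roles held 1 or 2 genes each. DHX29, which helps the small ribosomal subunit to scan structured leaders, gave 125 and 121 in EV total, 219 and 268 in miR-155 total, 118 and 65.0 in EV IP, and 139 and 204 in miR-155 IP. Its total ratio was 1.97. DHX30, needed for the mitochondrial ribosome, gave 2407 and 2399 in EV total, 3312 and 2828 in miR-155 total, 2056 and 1626 in EV IP, and 2372 and 2453 in miR-155 IP, a total ratio of 1.27. The export helicases DDX19A and DDX19B were at 1.33 and 1.18, near-identical paralogs whose probes may share signal. DHX58 (LGP2), a regulator of RIG-I-like RNA sensing, was at 1.23, and DDX11, which serves sister chromatid cohesion, at 0.990.

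**Figure D4:**
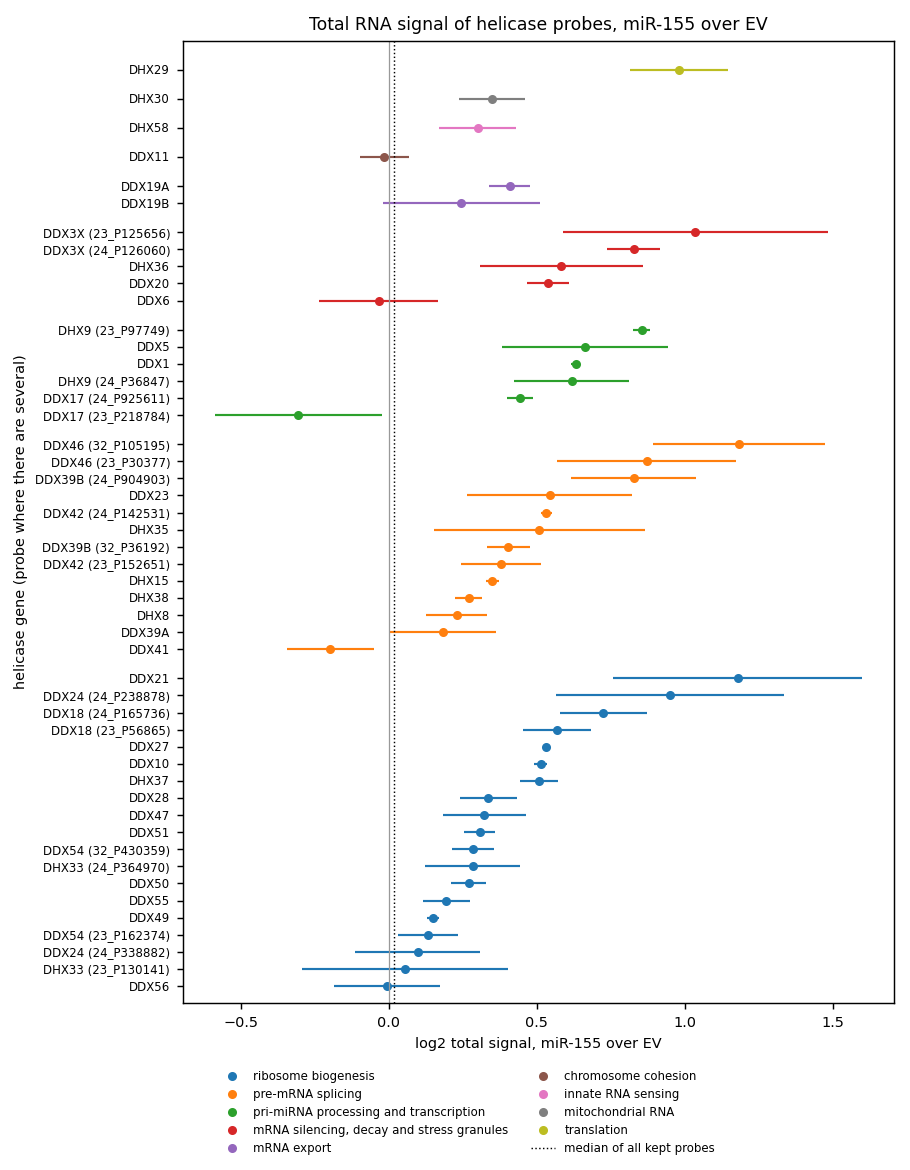
log2 ratio of total RNA signal, miR-155 over EV, for the 49 kept helicase probes, coloured by role. Points are means of the dye orientations, bars span the 2 orientations, and the dotted line is the median of all kept probes. The bars of 41 probes lie wholly to the right of 0 and those of 2 wholly to the left.

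The IP signal showed the difference too. It was higher in miR-155 in both orientations for 39 of 49 probes (79.6%) against 34.4% of all kept probes, and lower in both for 4 against 34.2%. The median ratio of the IP signal was 1.21, against 1.00. The IP ratio was thus nearer to 1 than the total ratio of 1.32, and total and IP RNA of a vector were hybridised on the same arrays.

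RNA helicases outside the DDX and DHX names were looked at beside them: 20 genes including the EIF4A paralogs, RIGI, IFIH1, UPF1, SNRNP200 and DICER1, with 22 of 30 probes kept. Total signal was higher in miR-155 in both orientations for 17 of these 22, with a median ratio of 1.24. UPF1, the helicase of nonsense-mediated decay, was the highest at 2.35, with 1.62 and 3.41 in the orientations. HELZ2 was the lowest at 0.617, with 0.776 and 0.491. In the IP, 4 of the 22 probes (18.2%, against 12.1% of all kept probes in EV and 12.2% in miR-155) had an IP/T of at least 2 in each vector and 0 had an IP/T of at most 0.5. Those 4 were the probes of 2 genes, DICER1, the enzyme that cuts precursor microRNAs, at 8.34 and 6.01 in EV, and EIF4A2, a translation helicase, at 4.72 and 3.04. The highest value of a DDX or DHX probe in EV was 3.47, for DDX3X. Whether the 2 sets differ was not tested.

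**Figure D5:**
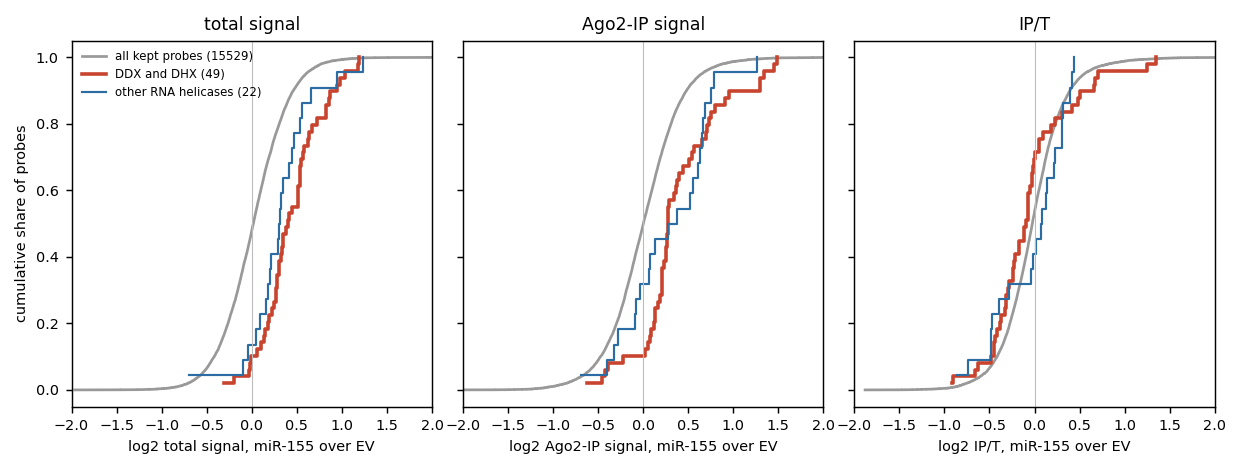
Cumulative share of probes against the log2 ratio miR-155 over EV of total signal, Ago2-IP signal and IP/T, for all 15529 kept probes (grey), the 49 helicase probes (red) and 22 probes of other RNA helicases (blue). For total and IP signal the red and blue lines lie to the right of the grey one over most of the range, whereas for IP/T all 3 lie close to 0.

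The members' promoters were also read for a sequence element, and whether it bears on total signal was not tested. The E-box CACGTG, the best-known binding sequence of MYC, reads the same on both strands and was searched in the 300 bases from 250 before to 50 after each RefSeq start (GRCh38.p14). It was present in 5 of 46 promoters of kept helicase genes (10.9%), against 7.26% of all 35116 promoters. By gene that was 5 of 35 with a promoter in the table (14.3%, against 8.77% of all 27305 genes): DDX5, DDX21, DDX54, DHX35 and DHX37. All promoters and all genes include those without a kept probe, and the share among genes with a kept probe was not computed. The median total ratio was 1.42 for the 5 helicase genes with the E-box, from 1.16 to 2.26. It was 1.27 for the other 30, from 0.872 to 2.05, so the ranges overlapped. The stretches upstream of the start that hold it are shown because they are the only shared letters looked for, with the E-box in capitals and each written on its gene's strand.
DDX21, chr10:68956592-68956645, plus strand: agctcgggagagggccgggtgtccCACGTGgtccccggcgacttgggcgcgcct
DDX5, chr17:64506639-64506692, minus strand: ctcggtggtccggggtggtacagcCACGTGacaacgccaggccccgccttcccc
DDX54, chr12:113185510-113185563, minus strand: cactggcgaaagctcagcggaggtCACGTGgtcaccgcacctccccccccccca
DHX35, chr20:38962136-38962189, plus strand: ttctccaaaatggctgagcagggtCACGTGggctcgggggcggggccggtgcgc
The first base of the E-box lay 31, 30, 61 and 184 bases before the start in that order. A match is a description of letters and not a binding site, and binding was not measured.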

How the data were processed

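Total and Ago2-IP RNA of ST486 cells with EV or miR-155 were compared on 4 two-colour Agilent arrays, each deposited under both of its channels (8 files). The authors scanned and extracted them with Agilent Feature Extraction 10.5.1.1, and the deposited files give each spot's dye-normalized, background-subtracted intensity. Here, control spots were left out (43376 spots of 41000 probes remained), spots of a probe averaged, intensities below 1 set to 1, and log2 values quantile normalized over the 8 channels. Detection in 4 or more channels left 19469 probes, and a difference of no more than 2-fold from Cy3 to Cy5 in every RNA sample left 15529 (kept probes). The authors' deposited log2 values of 14453 probes, which include 47 helicase probes, differed from these by at most 0.05 for 99.8% to 100% of probes per channel and have medians of 9.89 to 9.91. Their scale is thus known, uncentred and per channel.

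The deposited tables hold no gene names, so 23958 probes were named through RefSeq accessions (GRCh38.p14). With n = 1 per condition no p-value was computed, and labellings give technical spread only. The number of arrays limits the precision. The members, roles and other lists were chosen with earlier results of these data known. Every member may be named. Signals of every channel are given for probes with an IP/T of at least 2 or at most 0.5 in either vector or a vector ratio (of IP/T or total) of at least 1.5-fold in both orientations, and for DDX3X, DDX5, DDX6, DDX17, DDX20, DDX21, DHX9, DHX30 and DHX36, chosen for their roles. The remaining probes with signals in every channel (second kept probes of DDX24 and DDX42) were chosen after their values were seen, for comparison. Scripts ran in Python 3.11.15 with numpy 2.4.6 and pandas 2.3.3, and limma 3.58.1 in R 4.3.3 for normexp, and were tested on simulated data. Alternatives changed the background correction, normalization, filters, dye orientation, spot flags, threshold and the unit counted. A marker of the B-cell list is not reported here.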

Additional observations from a re-analysis of the deposited data

Results flagged for a closer look

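In 2 of the 49 kept helicase probes, IP/T lay on one side of 1 in both dye orientations of EV and on the other side in both orientations of miR-155, as it did for 502 of all 15529 kept probes (3.23%, against 4.08% of the members). The first was DDX42 A_24_P142531, whose ratio of IP/T, miR-155 over EV, was 0.529, while the other kept DDX42 probe gave 1.33. The second was DHX9 A_24_P36847 with a ratio of 1.60, where the other kept DHX9 probe gave 1.40 and had an IP/T above 1 in both vectors. These differences were not tested, since each vector is 1 RNA sample.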

How the results depend on the processing

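Total signal was higher in miR-155 in both dye orientations for 41 of 49 helicase probes as reported, and for 35 to 49 under the alternatives that gave this count. As the number of kept probes differed, that was 63.8% to 95.6% of helicase probes, against 26.5% to 73.3% of all kept probes, the highest of both without quantile normalization. A set of 6 counts and 3 medians were recomputed: probes with an IP/T of at least 2 or at most 0.5 in each vector, probes with the ratio miR-155 over EV of IP/T or of total signal past 2-fold, and median log2 values. As reported, these were 3 and 4 in EV, 3 and 4 in miR-155, 2 and 3, with medians of -0.11 for IP/T in EV, -0.34 in miR-155 and 0.40 for total signal. The values that moved follow. For these counts past a threshold, the share of all kept probes under the same alternative was not computed. They therefore describe the members alone and cannot be set against the array as a whole. In these, the cause was not tested.

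Without quantile normalization, 1 probe passed for IP/T between vectors and 17 for total signal, where the median of all kept probes was itself 0.44. The IP/T medians were 0.018 in EV, a change of sign, and -0.28 in miR-155, and the total median was 0.85. Centring each channel on its median, chosen after seeing the data, gave -0.053 for IP/T in EV and 0.38 for total. The authors' log2 values gave 1 probe for IP/T between vectors. Normexp with quantile normalization gave 0 probes in each of the counts and medians of -0.018, -0.073 and 0.10. Normexp with loess and Aquantile also gave 0 in each, with medians of 0.0097, a change of sign, -0.081 and 0.16. There, of the log2 ratios of IP/T between vectors that were past 1.5-fold in both orientations, those of DDX24 A_24_P338882 (-0.035), DDX3X A_23_P125656 (0.044) and DDX56 (-0.31) changed sign. The local background was above 500 for 33 spot signals, and normexp was repeated with these replaced by the channel's median, chosen after seeing the data. With quantile normalization this gave 1 probe at most 0.5 in EV, 1 in miR-155, 0 for IP/T between vectors and 1 for total, with medians of -0.041, -0.17 and 0.25. With loess and Aquantile it gave 1, 1, 0 and 1, with medians of -0.0097, -0.073 and 0.24.

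Detection in all 8 channels left 0 probes for IP/T between vectors. No filter on detection gave medians of -0.12 for IP/T in miR-155 and 0.32 for total. No filter on dye difference gave 5 probes for IP/T between vectors, 7 for total and a total median of 0.48. Arrays with total RNA in Cy3 alone gave 9 probes at most 0.5 in EV, 8 in miR-155, 5 for IP/T between vectors and 0 for total, with medians of -0.22 in miR-155 and 0.43 for total. Arrays with IP RNA in Cy3 alone gave 5 probes of at least 2 in EV, 2 at most 0.5 in EV, 2 in miR-155 and 7 for total, with medians of -0.046 in EV and 0.42 for total. Taking 1 value per gene gave 1 gene of at least 2 in EV, 0 for IP/T between vectors and a total median of 0.35. A threshold of 1.5 gave 5 and 11 in EV, 7 and 12 in miR-155, 9 for IP/T between vectors and 13 for total. A threshold met in each orientation gave 2 at most 0.5 in EV, 1 in miR-155, 1 for IP/T between vectors and 0 for total. The probe for IP/T between vectors was DDX24 A_24_P338882, whose ratio was not measured. Leaving out spots marked as outliers or saturated changed none of these counts. Of 948 values recomputed for the 25 probes named by the rule, 795 moved by less than the spread between orientations, 150 moved further, and the 3 given above changed sign from past a threshold. Ratios nearer 1, such as that of DDX1, changed sign within the first 2 kinds. Many of the 795 were fixed in advance. Settings that changed only a filter left the value of a kept probe as it was. A single orientation always lies within the spread used here. The 795 therefore do not measure how far the values depend on processing.

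No paired analysis was possible because each condition is 1 RNA sample. A slide block was not run, since no slide holds both vectors, and members by the arrays' own gene names were not run, since the tables hold none. Signal over background limits DDX24 A_24_P338882, DHX33 A_23_P130141 and DDX42 A_24_P142531 most, each detected in 5 of 8 channels.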
